A study of Homo sapiens with 78 samples.

Results

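The replication-dependent histone genes are the protein-coding genes that GENCODE v44 names H1-1 to H1-6, or H2AC, H2BC, H3C or H4C followed by a number. By this rule 69 of the 58388 GENCODE v44 genes with a quantified transcript were members, with 6 genes of class H1, 17 of H2A, 18 of H2B, 13 of H3 and 15 of H4. Total RNA had been sequenced from single cells of A375, a human melanoma line, and Jurkat, a human T cell leukaemia line, after fluorescence-activated cell sorting into wells. Libraries of each line were made with a SMARTer Stranded Total RNA-Seq Kit (v2, #634413) or the SMART-Seq Stranded Kit (#634444), and 1 well held 1 cell. The 4 groups were A375 with kit #634413, A375 with kit #634444, Jurkat with kit #634413 and Jurkat with kit #634444. No drug or introduced genetic change is named for any group beyond the cell line itself, and all cells were stained with 7-AAD, a dye that marks dead cells. A375 cells were sorted with an antibody to CD47 into PBS and Jurkat cells with an antibody to CD81 into lysis solution, so the cell line, the antibody and the sort buffer cannot be told apart. No separate cultures are named, so each group was treated as 1 sample, no p-value was computed, and every SD below is the spread between wells.

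Replication-dependent histone genes supply the histones that package newly made DNA, and in dividing cells their mRNAs rise as S phase starts and are degraded when replication ends. Their mRNAs are the known exception among animal mRNAs in that most carry no poly(A) tail. They end after a short stem-loop that the stem-loop binding protein SLBP holds, so that libraries primed on poly(A) largely miss them and total RNA libraries do not. H2A, H2B, H3 and H4 form the nucleosome core, and H1 binds the linker DNA between nucleosomes.

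A stem-loop was found in a single-exon transcript of 66 of the 69 members, in 7 distinct cores of 16 bases (stem of 6 bases, loop of 4). The sequences come from GENCODE v44 on hg38 and run 5′ to 3′, with the core in capitals. They are shown because the core sets class H4 apart from the other classes. The core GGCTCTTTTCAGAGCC was shared by 40 members of classes H1, H2A, H2B and H3, and the core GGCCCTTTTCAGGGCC by 10 members, all of class H4. A further 9 members of classes other than H4 carried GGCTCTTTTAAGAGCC, and another 4 H4 members carried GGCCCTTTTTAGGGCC. In 62 members the annotated transcript ended at most 18 bases after the core, in 44 of them 5 bases after it. The annotated transcripts of H2AC25, H3C10, H2BC21 and H2BC26 ran on for 390 to 4551 bases.
H1-5 (chr6:27866792-27866817, minus strand): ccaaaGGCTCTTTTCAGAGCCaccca
H2AC20 (chr1:149887386-149887411, plus strand): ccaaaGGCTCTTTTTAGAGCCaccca
H2BC11 (chr6:27132316-27132341, minus strand): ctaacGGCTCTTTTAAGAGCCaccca
H3C3 (chr6:26045844-26045869, plus strand): gaaaaGGCTCTTTTCAGAGCCactca
H3C11 (chr6:27871845-27871870, minus strand): caaaaGGCTCTTTTCAGAGCCcctca
H4C5 (chr6:26204996-26205021, plus strand): tcaaaGGCCCTTTTCAGGGCCgccca

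Promoters of 300 bases (250 before to 50 after the transcription start) from RefSeq on GRCh38.p14 were matched for 64 of the 69 members. They were searched on both strands for TATAAA, for CCAAT and for the octamer ATTTGCAT. TATAAA was in 65.6% of the member promoters and in 11.95% of all 27305 promoters of the same length. CCAAT was in 84.4% of the member promoters against 35.7% of all promoters. It was in every matched promoter of classes H1, H2A, H2B and H3 and in 23.1% of those of H4. The octamer was in 68.8% of H2A and 77.8% of H2B promoters, in 9.09% of H3 promoters and in none of class H1 or H4, against 1.80% of all promoters. The promoters below belong to members with large differences between the lines (H3C3, H2BC3, H4C13, H1-5, H2BC11) and to H4C5, the member found in every Jurkat well. H3C11, which also differed widely, had no promoter entry. Capitals mark matches to the 3 motifs on either strand, and neighbouring matches can overlap. The H4C5 promoter holds none of them, and the H2BC11 promoter spans the whole space up to H2AC11.
H3C3 (chr6:26045134-26045433, plus strand): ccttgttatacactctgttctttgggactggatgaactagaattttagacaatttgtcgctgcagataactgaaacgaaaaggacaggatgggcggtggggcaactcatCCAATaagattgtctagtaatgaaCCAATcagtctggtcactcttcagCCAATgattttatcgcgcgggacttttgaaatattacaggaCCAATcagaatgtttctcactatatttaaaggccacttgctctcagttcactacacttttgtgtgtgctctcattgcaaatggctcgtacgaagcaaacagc
H2BC3 (chr6:26043664-26043963, minus strand): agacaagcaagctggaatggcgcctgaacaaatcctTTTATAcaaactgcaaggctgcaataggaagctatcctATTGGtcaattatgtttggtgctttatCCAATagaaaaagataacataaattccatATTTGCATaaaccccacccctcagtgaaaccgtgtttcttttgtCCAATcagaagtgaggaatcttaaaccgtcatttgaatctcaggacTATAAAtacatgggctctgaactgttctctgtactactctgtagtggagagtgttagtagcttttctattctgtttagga
H4C13 (chr6:27873485-27873784, minus strand): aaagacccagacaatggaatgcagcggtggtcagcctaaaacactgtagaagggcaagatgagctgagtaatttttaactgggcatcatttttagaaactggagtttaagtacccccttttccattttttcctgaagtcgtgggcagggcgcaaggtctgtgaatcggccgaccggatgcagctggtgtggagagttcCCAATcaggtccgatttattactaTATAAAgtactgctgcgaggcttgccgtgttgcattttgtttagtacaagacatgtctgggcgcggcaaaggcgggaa
H1-5 (chr6:27867539-27867838, minus strand): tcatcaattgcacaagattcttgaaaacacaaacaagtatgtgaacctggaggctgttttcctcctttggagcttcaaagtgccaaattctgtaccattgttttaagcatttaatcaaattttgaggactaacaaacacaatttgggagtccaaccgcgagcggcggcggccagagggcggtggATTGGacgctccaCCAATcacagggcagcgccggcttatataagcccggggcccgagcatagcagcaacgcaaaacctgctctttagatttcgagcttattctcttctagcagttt
H4C5 (chr6:26204360-26204659, plus strand): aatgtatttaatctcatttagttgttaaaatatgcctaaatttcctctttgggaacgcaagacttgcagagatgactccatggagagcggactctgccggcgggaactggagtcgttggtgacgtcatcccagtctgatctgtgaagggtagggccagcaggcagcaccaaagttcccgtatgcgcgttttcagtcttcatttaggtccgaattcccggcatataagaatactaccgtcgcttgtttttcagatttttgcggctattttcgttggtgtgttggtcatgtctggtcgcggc
H2BC11 (chr6:27132746-27133045, minus strand): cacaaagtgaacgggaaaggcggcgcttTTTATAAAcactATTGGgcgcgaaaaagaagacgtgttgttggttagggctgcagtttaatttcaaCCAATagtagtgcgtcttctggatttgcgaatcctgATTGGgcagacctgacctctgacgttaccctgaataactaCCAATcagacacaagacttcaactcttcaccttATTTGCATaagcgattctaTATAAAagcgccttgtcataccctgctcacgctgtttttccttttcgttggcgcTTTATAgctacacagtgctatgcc

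Values are Kallisto's estimated counts summed over a gene's transcripts and divided by all estimated counts of the well other than ERCC spikes, as a percent or as CPM (the same share scaled to libraries of equal size), or the deposited TPM, which corrects for length, where levels of different genes are compared. Of the 78 wells, 69 held at least 25% of the median total (33 of A375, 36 of Jurkat) and were used, and the 9 left out were all A375 wells. Totals ran from 231540 to 2567265 counts in A375 wells and from 413959 to 1443975 in Jurkat wells. Protein-coding genes took 4.84% to 77.7% of the counts in A375 wells, with 3 wells under 50%, and 67.1% to 76.9% in Jurkat wells. The sum of 10 T cell markers was 0% to 0.00404% in A375 wells and 0.119% to 0.346% in Jurkat wells, and that of 13 melanoma line markers was 0.00389% to 0.611% and 0% to 0.00512%, so the labels matched these markers. For 34 of the 96 member transcripts the quantified target was as long as the coding part alone, so that reads over their stem-loops had no target. In 23 members fewer than 80% of the 31-base stretches occur in no other gene, and in 10 of these fewer than 10% do, so Kallisto's split of reads between such copies is uncertain.

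The histone members took a larger share of the RNA in Jurkat cells than in A375 cells with both kits. In A375 wells the share was 0% at the lowest, 0.0819% at the median and 0.535% at the highest with kit #634413, and 0.0131%, 0.0957% and 0.579% with kit #634444. In Jurkat wells it was 0.00458%, 0.326% and 3.67% with kit #634413, and 0.119%, 0.402% and 4.41% with kit #634444. The ranges of the lines overlapped with both kits, but no A375 well reached the highest 6 Jurkat wells of either kit. The means were 0.127% ± 0.137 (SD, n = 17 wells) and 0.140% ± 0.130 (n = 16) in A375 and 0.987% ± 1.14 (n = 18) and 1.35% ± 1.56 (n = 18) in Jurkat. With the counts of a group pooled, the share was 0.133% (95% exact Poisson interval 0.131 to 0.134) and 0.177% (0.175 to 0.180) in A375 and 1.09% (1.09 to 1.10) and 1.34% (1.34 to 1.35) in Jurkat. The means of the lines differed by 0.861 and 1.21 percentage points, less than the SD between Jurkat wells, in which a few wells held most histone counts. The Poisson intervals cover counting error only, and the spread between wells is far wider. The means of the kits within a line differed by less than 1 SD between wells.

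Jurkat wells were divided at a gap in this share. With kit #634413, 6 of 18 wells held 1.39% or more, the next held 0.521%, and no well lay in the 2.67-fold gap between them. With kit #634444, 6 of 18 wells held 2.26% or more and the next held 0.594%, a 3.80-fold gap. Each Jurkat block of 8 consecutive index numbers, the size in which libraries were pooled, held 2 of these high wells, so they did not gather in a block. No A375 well held 1% or more. Gaps of such size also lay between A375 wells. With kit #634413 the gap was 14.7-fold, from 0.00323% to 0.0473%. With kit #634444 gaps were 4.19-fold, from 0.0131% to 0.0548%, and 2.64-fold, from 0.220% to 0.579%. The gaps were found in these same values, and whether they part different kinds of cells was not tested. The number of members with at least 1 count was 29 at the median (0 to 56) and 36 (27 to 60) in A375 wells and 42.5 (3 to 58) and 52 (34 to 59) in Jurkat wells. The lowest Jurkat well, of kit #634413, held 41 member counts, 39 of them from H4C5 and 1 each from H4C15 and H2BC17. The next Jurkat well of that kit held 0.151%, 33.0 times as much. An A375 well had no member count among 231540 counts, which allows a share of up to 0.00130%, and protein-coding genes took 4.84% of that well.

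**Figure D1:**
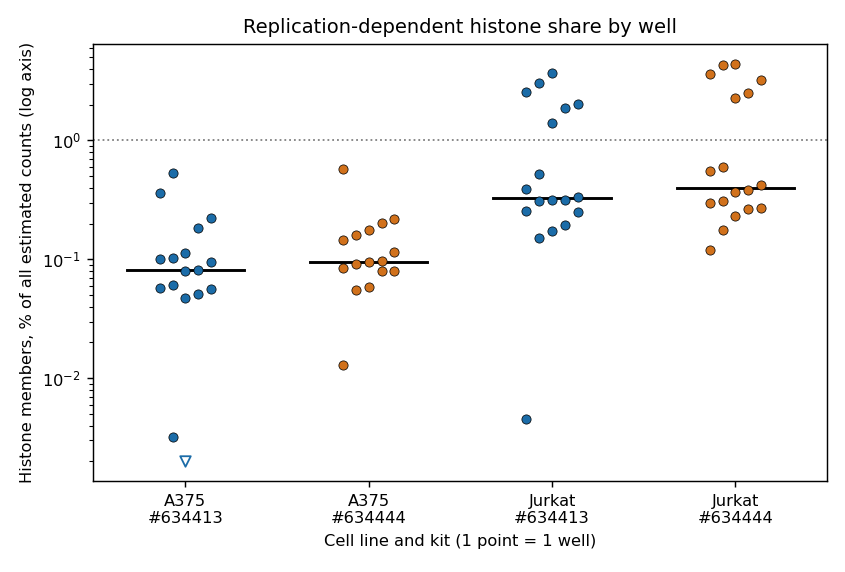
The share of all estimated counts that the 69 histone members took (y axis, percent, log scale) is drawn for each well, 1 point a well, by cell line and kit, with the median as a bar and a well at 0 as an open triangle. With each kit 6 Jurkat wells lie above 1% (dotted line) and apart from the other Jurkat wells, and no A375 well does.

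On average class H1 took a larger part of the members' TPM in A375 wells, and H2B a larger part in Jurkat wells. H1 made up 19.9% ± 8.84 and 22.3% ± 8.72 in A375 wells and 11.4% ± 4.61 and 16.7% ± 4.54 in Jurkat wells (mean ± SD over wells, kit #634413 then #634444 in each line). H2B made up 11.8% ± 6.43 and 11.7% ± 5.10 in A375 wells and 19.04% ± 5.18 and 19.6% ± 4.12 in Jurkat wells. By TPM the lines differed for H2B by more than either SD with both kits, and for H1 by less than the SD of the A375 wells. By counts, H2B made up 15.9% ± 6.79 and 14.7% ± 5.43 in A375 wells and 18.3% ± 6.36 and 20.03% ± 3.82 in Jurkat wells. These H2B differences by counts were within the SD of the A375 wells with both kits. H2A made up 26.3% ± 13.1 and 26.3% ± 6.62 in A375 wells and 27.02% ± 8.997 and 23.7% ± 7.28 in Jurkat wells, H3 16.9% ± 17.4 and 11.8% ± 7.22 in A375 wells and 13.3% ± 5.74 and 16.3% ± 4.14 in Jurkat wells and H4 25.05% ± 12.6 and 27.9% ± 12.2 in A375 wells and 29.2% ± 15.4 and 23.7% ± 9.24 in Jurkat wells. For these classes the lines differed by less than the larger of their SDs.

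Of the 6 linker histone genes, H1-2, H1-3, H1-4 and H1-5 held nearly all H1 counts. H1-5 differed most between the lines within the class. Its TPM was at the median (lowest to highest) 0 (0 to 284) and 0 (0 to 273) in A375 wells and 307 (0 to 4194) and 350.4 (0 to 4667) in Jurkat wells. H1-5 was under 3 counts in 9 of 17 and 11 of 16 A375 wells and in 1 of 18 Jurkat wells with each kit, so that its ranges overlapped only in their lower parts. The TPM of H1-4 was 136 (0 to 451) and 137 (7.01 to 639) in A375 wells and 196 (0 to 3180.2) and 409 (169 to 2476) in Jurkat wells. H1-2 was the highest H1 member in A375 wells by mean TPM, at 153 (0 to 842) and 239.9 (20.5 to 1120.2) in A375 wells and 182 (0 to 1736) and 299.8 (7.85 to 2331) in Jurkat wells. H1-3 was at 61.2 (0 to 165) and 102 (0 to 358) in A375 wells and 189 (0 to 1116) and 342 (103 to 1898) in Jurkat wells. H1-2, H1-3 and H1-4 were above 0 at the median in both lines, and their ranges overlapped widely. H1-6, a testis form, had counts in few wells and a highest TPM of 78.2, and H1-1 had 3 counts in all.

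Among H2A members, H2AC14, H2AC19, H2AC17 and H2AC20 had the highest mean TPM. H2AC14 was at 1.59 (0 to 495) and 4.22 (0 to 288) in A375 wells and 397 (0 to 3400.0) and 279 (6.11 to 4630.2) in Jurkat wells. It was close to 0 in most A375 wells and well above 0 at the Jurkat median with both kits. H2AC20 differed least of these between the lines, at 129.6 (0 to 1068) and 159.9 (37.3 to 1340.4) in A375 wells and 245 (0 to 1372) and 276 (27.4 to 1783) in Jurkat wells. H2AC17 was at 17.4 (0 to 454) and 24.5 (0 to 504) in A375 wells and 355 (0 to 3834) and 250.4 (5.93 to 2343) in Jurkat wells. H2AC19 shares nearly all its sequence with H2AC18, and their sum is the safer value. That sum was at 53.9 (0 to 484) and 58.1 (0 to 420.5) CPM in A375 wells and 188 (0 to 2131) and 179 (68.2 to 2706) CPM in Jurkat wells, a log2 difference between the lines of 2.60 and 3.27. The sums of other near-identical copies differed in the same direction, by 2.57 and 3.90 for H3C14 with H3C15, 2.83 and 2.70 for H4C11 with H4C12, and 2.21 and 2.04 for H4C14 with H4C15.

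Among H2B members the leading genes were H2BC17, H2BC4, H2BC11 and H2BC5. H2BC17 had a TPM of 0 (0 to 153) and 1.92 (0 to 239) in A375 wells and 248 (0 to 2884) and 287 (7.35 to 3332) in Jurkat wells. H2BC11 had a TPM of 0 (0 to 132) and 0 (0 to 259.9) in A375 wells and 187 (0 to 2239.6) and 279.6 (0 to 3431) in Jurkat wells. Both were at or near 0 at the A375 median and well above 0 at the Jurkat median. H2BC4 had a TPM of 14.1 (0 to 592) and 40.1 (1.79 to 431) in A375 wells and 144 (0 to 1942) and 258 (29.9 to 3059) in Jurkat wells. H2BC5 had a TPM of 18.5 (0 to 271) and 29.8 (1.45 to 259.8) in A375 wells and 171 (0 to 1732) and 251 (78.7 to 1787) in Jurkat wells, so both of these were present in most wells of either line.

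Among H3 members H3C2 had the highest mean TPM, at 8.74 (0 to 1107) and 30.3 (0 to 1374) in A375 wells and 252 (0 to 3339.9) and 569.6 (25.5 to 5227) in Jurkat wells. H3C11 was at 0 in every A375 well and at 378 (0 to 2585) and 424 (109 to 2383) TPM in Jurkat wells. H3C4 had a TPM of 0 (0 to 173) and 0 (0 to 152) in A375 wells and 187 (0 to 1605) and 75.7 (0 to 1307) in Jurkat wells. No 31-base stretch of the H3C4 target occurs in that gene alone, so its level is uncertain. H3C7 had a TPM of 0 (0 to 107) and 2.52 (0 to 110.3) in A375 wells and 6.18 (0 to 2003) and 124 (0 to 2108) in Jurkat wells. H3C4 and H3C7 were at or near 0 at the A375 median, while H3C2 was above 0 at the median of all groups.

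Among H4 members the leading gene was H4C11, with a TPM of 167 (0 to 1029.5) and 184 (16.2 to 834) in A375 wells and 884 (0 to 3924) and 755 (155 to 6522) in Jurkat wells. Of its 31-base stretches 7.52% occur in no other gene, so its split from H4C12 is uncertain. H4C4 had a TPM of 32.1 (0 to 383) and 31.8 (0 to 377) in A375 wells and 130.5 (0 to 2922) and 178 (0 to 2371) in Jurkat wells. H4C3 had a TPM of 71.4 (0 to 579) and 71.7 (0 to 403) in A375 wells and 251 (0 to 1686) and 116 (11.5 to 2222) in Jurkat wells. These H4 members were above 0 at the median in both lines. H4C13 was at 0 in every A375 well and at 94.03 (0 to 1265) and 409 (0 to 2704) TPM in Jurkat wells. H4C5 was lower than these per length, with a TPM of 13.7 (0 to 56.2) and 19.03 (0.671 to 69.1) in A375 wells and 52.5 (7.48 to 243) and 44.3 (10.6 to 295) in Jurkat wells, but it was the only member with at least 3 counts in every Jurkat well, where its lowest values were 15.9 and 24.5 CPM. Its target in the files is 1487 bases long against 412 bases of the GENCODE v44 transcript, and the part of the added length in this pattern was not tested.

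**Figure D2:**
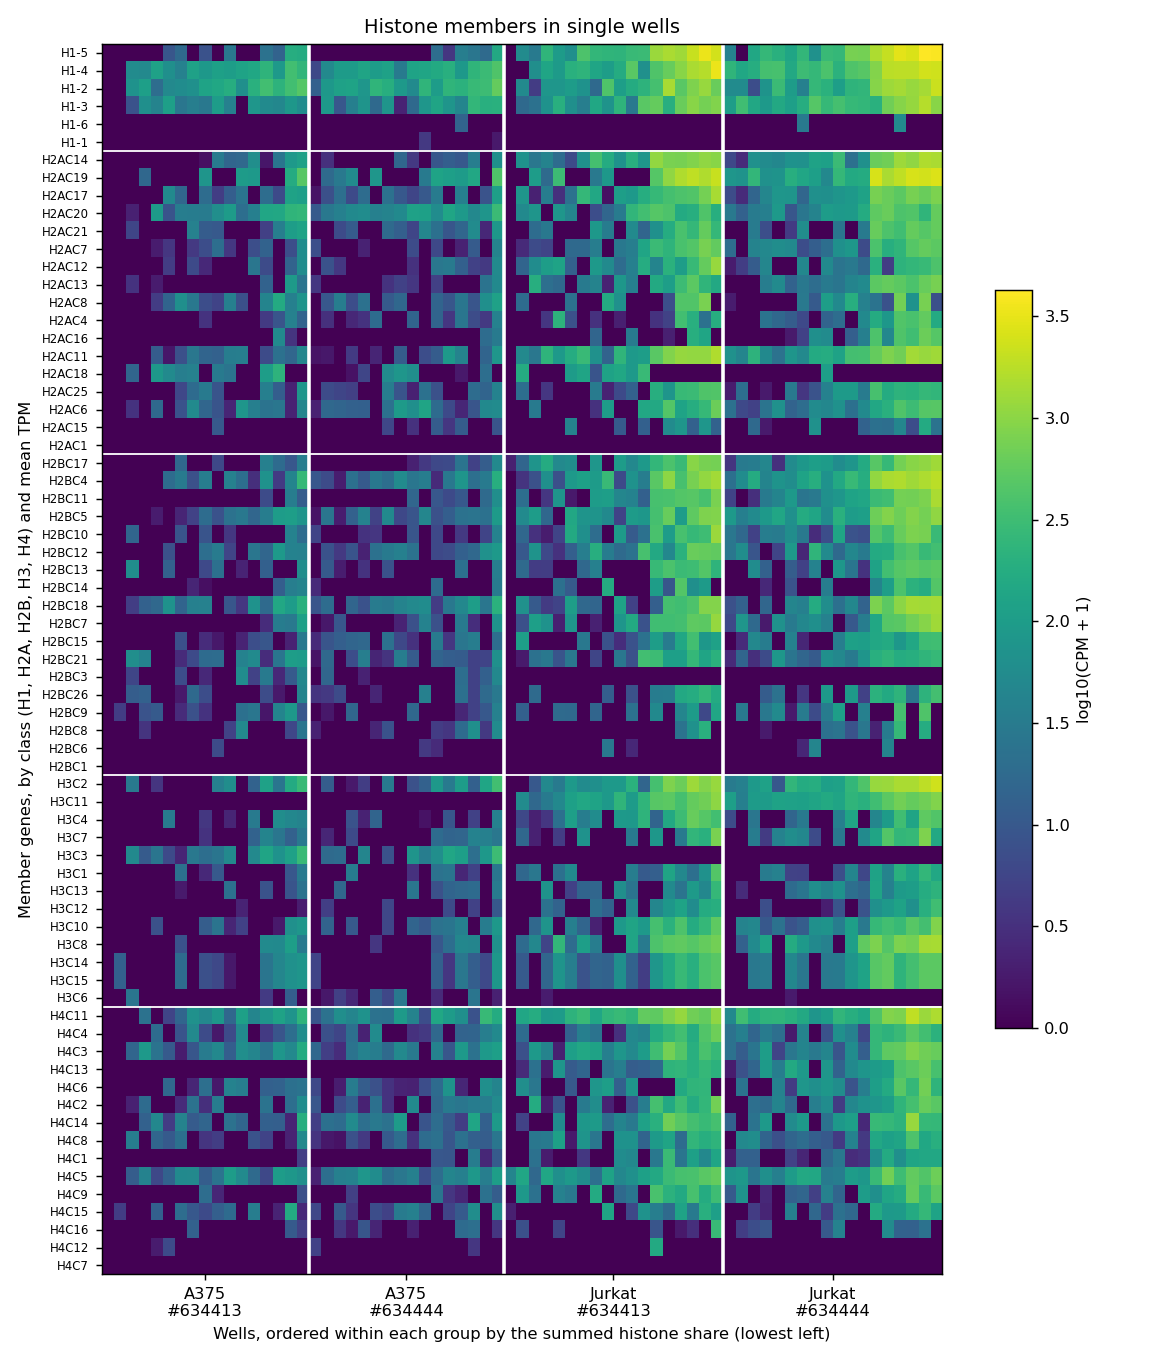
The level of each of the 69 members (y axis, by class and then by mean TPM) is drawn in each of the 69 wells (x axis, ordered within each group by the summed histone share) as log10(CPM + 1) in colour. Most members of all classes are brightest in the same 6 Jurkat wells of each kit, H2BC3 and H3C3 are dark in all Jurkat wells, and H3C11 and H4C13 are dark in all A375 wells.

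Most members had a higher mean level in Jurkat wells than in A375 wells. Levels were compared as log2 of the mean CPM plus 5 in Jurkat over that in A375, a scale that understates the change of low genes, and a 2-fold difference was counted for genes with a mean of at least 10 CPM in either line. With kit #634413, 60 of the 69 members passed this filter and 57 of them were at least 2-fold higher in Jurkat, where 22.1% of all 11315 genes that passed were, and 1 was at least 2-fold lower, against 22.5% of all genes. With kit #634444, 59 passed and 57 were at least 2-fold higher, against 18.4% of 11454 genes, and 1 was lower, against 22.6%. Of the members that passed, 23 and 27 passed through Jurkat alone, so that a higher value there was built into the filter. Of the 37 and 32 that reached 10 CPM in A375, 34 and 30 were at least 2-fold higher in Jurkat. The median log2 difference over all 69 members was 2.57 and 2.70, and that of all genes that passed was 0.09 and -0.00237. The same 56 members were higher with both kits: 4 of class H1, 15 of H2A, 14 of H2B, 11 of H3 and 12 of H4. The share of all genes higher with both kits is not given here, so this overlap is not set against other genes. The group means weigh the few high Jurkat wells most, so such a difference need not hold at the median. H1-2 was among the members counted as higher with both kits, though its medians in the lines, given above, lay close together.

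The largest log2 differences towards Jurkat in both kits were those of H3C11 (5.78 and 5.90), H1-5 (4.64 and 5.79) and H2BC11 (4.55 and 4.54), with kit #634413 first. Towards A375 they were those of H3C3 (-3.50 and -3.64), H2BC3 (-1.55 and -1.17) and H3C6 (-0.53 and -0.97), of which H3C6 did not reach 10 CPM in either line. H3C3 was the only member counted as lower in Jurkat. The filter was not passed with either kit by H1-1, H1-6, H2AC1, H2BC1, H2BC3, H2BC6, H3C6, H4C7 and H4C12, nor with kit #634444 by H4C16. No 31-base stretch of the H4C12 target occurs in that gene alone, so its level apart from H4C11 is uncertain. H2AC18 was within 2-fold with both kits, at 0.63 and -0.79, and H2BC9 was so with kit #634413, at 0.68, though not with kit #634444, at 2.70. Genes of DNA replication moved the same way. Of 20 listed, 18 were at least 2-fold higher in Jurkat with kit #634413 and 16 with kit #634444. So were 18 and 11 of 18 mitosis genes. Of all genes that passed the filter, 22.1% and 18.4% were higher. In A375, 17 of the replication genes reached 10 CPM with each kit, as did 10 and 17 of the mitosis genes. The rest passed through Jurkat alone. The part of these genes in the histone difference was not tested.

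**Figure D3:**
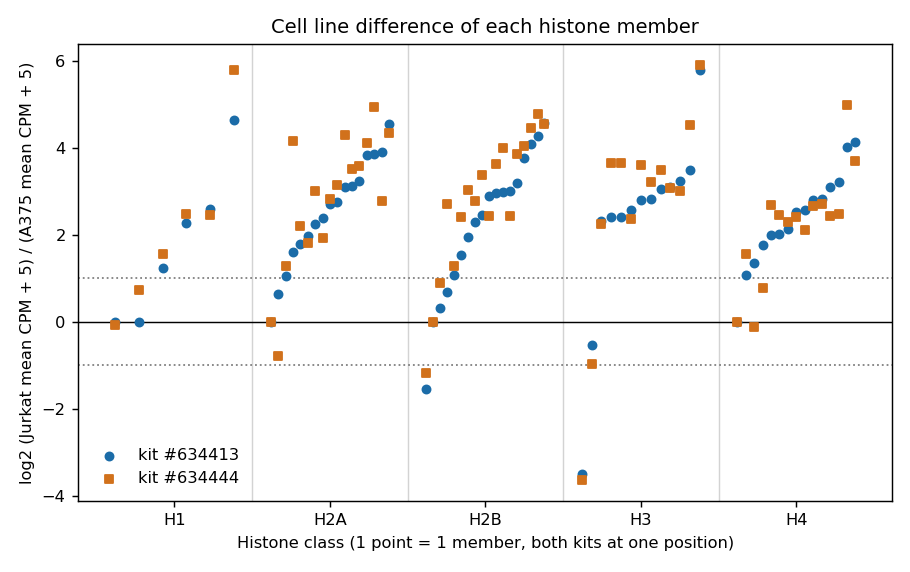
The log2 difference of each member between the lines (y axis, mean CPM plus 5 in Jurkat over A375) is drawn by class, with kit #634413 as circles and kit #634444 as squares at the same position. Dotted lines mark 2-fold. Nearly all members lie above the upper line with both kits, while H3C3 lies below the lower line and H2BC3 below it with both kits without reaching the 10 CPM filter.

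In each line a different pair of neighbouring members was at 0 in every well. H2BC3 and H3C3 lie side by side at chr6:26043227-26045869 (GENCODE v44, hg38), between H2AC4 and H1-2. In Jurkat neither had a count in any of 36 wells of 32490785 counts in all. In A375 wells H3C3 had 2105 counts, at least 1 in 26 of 33 wells, and H2BC3 had 343, at least 1 in 15 wells. With the Jurkat level set at a floor of 3 counts over all its wells, H3C3 was at least 701-fold and H2BC3 at least 114-fold higher in A375. The members on either side went the other way. Pooled over wells, H2AC4 stood at 6.95 CPM in A375 and 84.9 in Jurkat, and H1-2 at 178 and 450.2. The flanking genes are 22121 bases apart, and the pseudogene H2AC5P between them had 1 count in Jurkat and none in A375.

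H3C11 and H4C13 lie at chr6:27871845-27873534, between H1-5 and H3C12, whose nearest ends are 22726 bases apart. Neither had a count in any of 42 A375 wells, the 9 shallow ones included. In Jurkat H3C11 had 9349.7 counts, at least 1 in 35 of 36 wells, and H4C13 had 3932, at least 1 in 33 wells. Against a floor of 3 counts over the A375 wells used, H3C11 was at least 3119-fold and H4C13 at least 1312-fold higher in Jurkat. Both neighbours were detected in A375, H1-5 at 28.4 CPM against 999 in Jurkat and H3C12 at 1.12 against 48.8. The targets are mostly their own, since 88.3% of the 31-base stretches of H2BC3, 92.4% of H3C3, 96.1% of H3C11 and 97.2% of H4C13 occur in no other gene. Whether the genomes of these lines hold the genes, or hold them in the reference form, was not tested. H2AC1, H2BC1 and H4C7 had no count in any of the 78 wells.

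**Figure D4:**
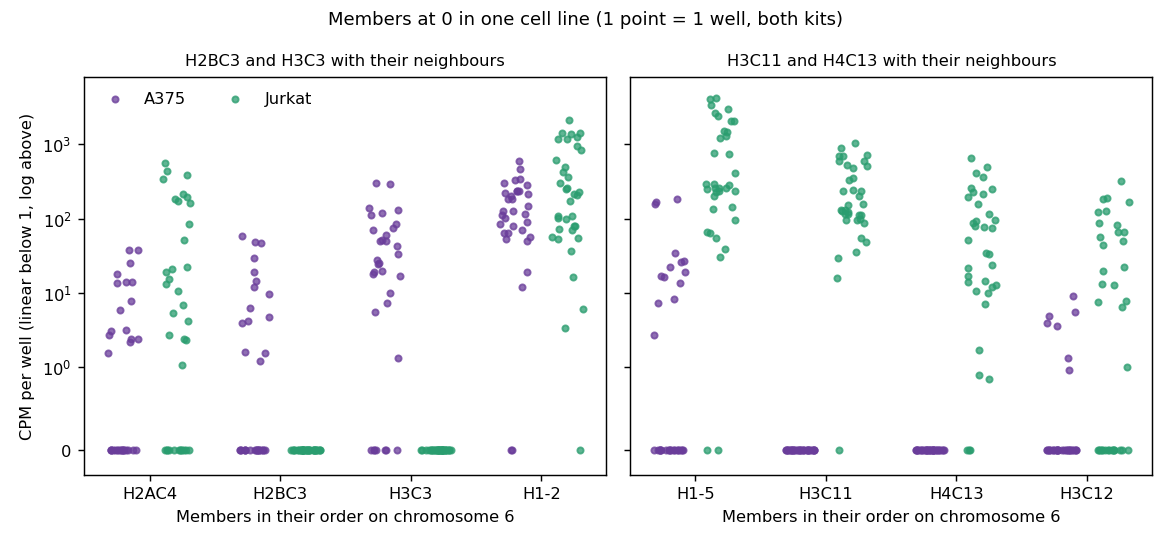
CPM in each well (y axis, linear below 1 and log above) is drawn for H2BC3 and H3C3 (left) and H3C11 and H4C13 (right) with the member on either side, in their order on chromosome 6, with A375 and Jurkat wells side by side and both kits together. H2BC3 and H3C3 are at 0 in all 36 Jurkat wells and H3C11 and H4C13 in all A375 wells, while the flanking members have counts in both lines.

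The lines also drew on different parts of the histone loci. The main locus on chromosome 6 holds 55 members in 4 stretches more than 200 kb apart, and 11 members lie on chromosome 1 near H2AC20 (HIST2). Of the members' TPM, the chromosome 6 members made up 74.3% ± 19.9 and 77.3% ± 7.64 in A375 wells and 88.1% ± 4.13 and 87.97% ± 3.95 in Jurkat wells. HIST2 made up 25.2% ± 20.02 and 21.9% ± 7.49 in A375 wells and 11.6% ± 4.04 and 11.5% ± 3.83 in Jurkat wells. With kit #634444 these differences were larger than the SDs, and with kit #634413 they were within the SD of the A375 wells. Within chromosome 6 the stretch at chr6:27807479-27893891 (16 members, among them H1-5, H2AC17, H2BC17 and H3C11) made up 16.3% ± 7.93 and 16.6% ± 7.71 in A375 wells and 38.3% ± 8.44 and 37.6% ± 4.26 in Jurkat wells. That difference was larger than the SD between wells with both kits. The stretch at chr6:26017032-26285638 (32 members) made up 55.1% ± 15.7 and 56.7% ± 8.46 in A375 wells and 41.04% ± 12.2 and 43.7% ± 4.39 in Jurkat wells. The 5 members at chr6:27125897-27147562 made up 2.82% ± 2.82 and 3.96% ± 2.63 in A375 wells and 8.73% ± 4.88 and 6.61% ± 2.65 in Jurkat wells. The remaining chromosome 6 members, H2AC1 and H2BC1, had no count.

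Many H2A and H2B members face away from each other across a short shared promoter region, and 12 such pairs have their starts at most 250 bases apart. In several pairs the levels of the genes were unequal. TPM here rests on the length of the targets in the files, which for 24 of the 96 member transcripts is longer and for 44 shorter than in GENCODE v44. Given as log2 of the mean TPM plus 5 of the first gene over that of the second, H2BC21 over H2AC20 was -4.17, -4.96, -3.96 and -4.24 in the order A375 #634413, A375 #634444, Jurkat #634413 and Jurkat #634444. H2BC8 over H2AC8 was -3.16, -2.41, -4.15 and -3.54. H2BC4 over H2AC6 was 2.22, 1.90, 3.32 and 3.90. By pooled CPM, which uses no length, H2AC20 (84.5 in A375, 169.8 in Jurkat) was also above H2BC21 (21.8 and 87.02), H2AC8 (33.1 and 130.006) above H2BC8 (8.27 and 26.7), and H2BC4 (42.7 and 439) above H2AC6 (23.2 and 125). H2BC11 over H2AC11 turned with the scale. By TPM it was 0.78, 1.55, 2.15 and 2.67, but the H2AC11 target is 2250 bases in the files against 493 in GENCODE v44, and by pooled CPM H2AC11 was the higher gene, at 16.7 against 7.34 in A375 and 446 against 234 in Jurkat. Of the 31-base stretches of H2AC20, 49.4% occur in no other gene. H2BC13 and H2AC13, by contrast, stood within 2-fold of each other in all 4 groups, at 0.40, -0.02, 0.17 and -0.36. By its gene span H3C12 also faces H2BC17, but only through a 2-exon transcript that held 4.72% and 5.43% of its counts in Jurkat. Its single-exon transcript starts beyond H2AC17. Counting this pair too, and H2AC1 with H2BC1, which had no count, the genes differed at least 2-fold by TPM in 9, 7, 8 and 8 of 13 pairs. Across wells the genes of a pair had a median Spearman's rho of 0.33 and 0.28 in A375 and 0.71 and 0.73 in Jurkat, a description over 16 to 18 wells that share their library totals, and in Jurkat it includes the split between high and other wells.

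**Figure D5:**
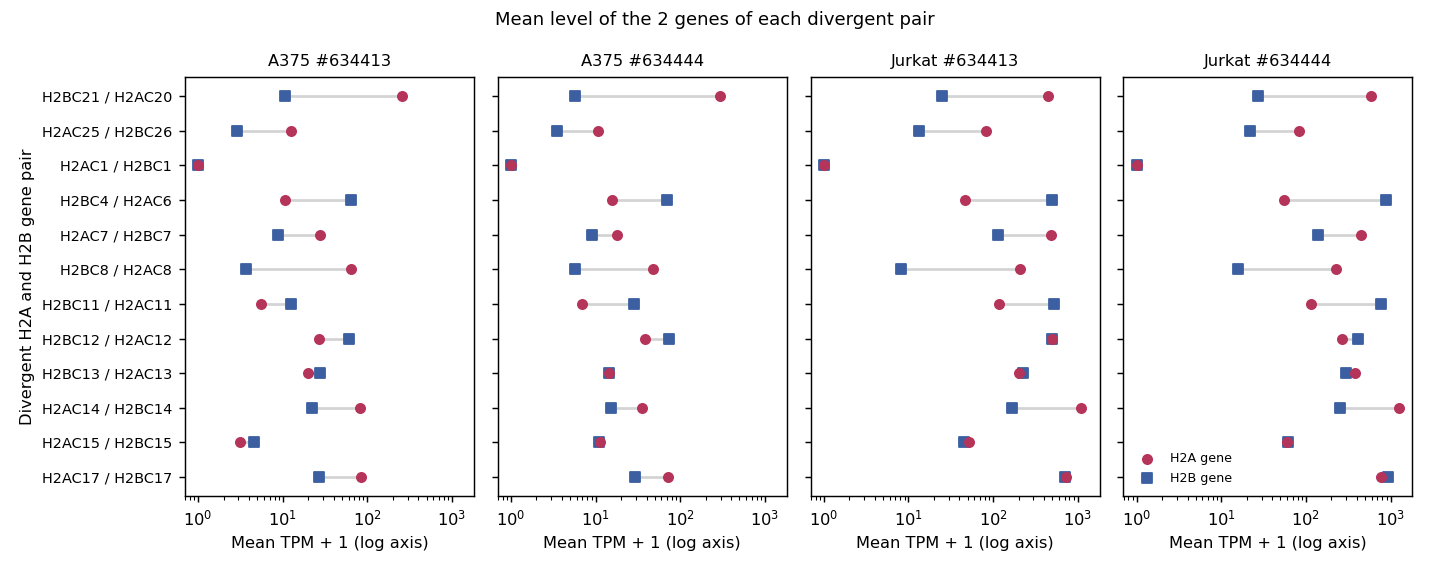
Mean TPM plus 1 (x axis, log scale) of the H2A gene (circle) and the H2B gene (square) of 12 divergent pairs (y axis) is drawn for each of the 4 groups, joined by a line. H2AC20 and H2AC8 lie far to the right of their H2B partners in every group, H2BC4 and H2BC11 to the right of their H2A partners (for H2BC11 the order is the opposite by CPM), and H2AC1 and H2BC1 are at 0.

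Of the 13 members with several annotated transcripts, 12 had a form that ends after a stem-loop in GENCODE v44, and H3C6 had none. Pooled over the 13 members, the share of counts on such forms was 78.9% and 75.1% in A375 and 89.3% and 89.96% in Jurkat, with kit #634413 first. The share differed between members. In H2BC15 the stem-loop form held 30.6%, 24.6%, 27.3% and 49.3% of the counts over the 4 groups, and in H2AC6 it held 44.7%, 79.8%, 78.9% and 89.1%. Kallisto assigns reads that fit several transcripts by a model, so these shares are estimates. Some of these forms are also longer in the files than in GENCODE v44. The stem-loop form of H2AC6 has 1654 bases in the files against 519, and that of H2BC15 has 1723 against 542. Reads over the added bases count towards these forms, so the shares need not be those of RNA that ends after a stem-loop. The part of the added length was not tested.

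Few members differed 2-fold between the kits within a line. In A375, 1 of 39 members that passed the filter was at least 2-fold higher with kit #634444 (H2BC15, log2 1.05), against 2.92% of all genes, and 1 was at least 2-fold lower (H2AC18, -1.11), against 1.16%. In Jurkat, 4 of 59 were higher, against 4.35% of all genes, namely H2AC16 (2.50), H2BC9 (1.24), H4C6 (1.16) and H2BC18 (1.05), and 1 was lower, against 3.72%, again H2AC18 (-2.52). Smaller differences in Jurkat were mostly towards kit #634444, where 51 of the 59 members were above 0, with a median log2 of 0.37 against 0.00772 for all genes. In A375, 20 of 39 members were above 0, with a median of 0.03 against 0.10. The H2AC18 difference was not seen in its sum with H2AC19, which was -0.11 in A375 and 0.56 in Jurkat. H2AC16 had a median of 0 TPM with kit #634413 and 66.1 with kit #634444 in Jurkat wells, and its ranges (0 to 533 and 0 to 1726) overlapped. The wells of a kit are different cells, so a kit and the cells it was used on cannot be told apart.

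An all-or-none pattern was counted where at least 25% of a group's wells held fewer than 3 counts of a gene and at least 25% held 30 or more, among genes with a mean of at least 10 CPM in the group. In Jurkat it was met by 23 of 59 members with kit #634413, against 31.3% of all genes, and by 17 of 57 with kit #634444, against 7.12%. In A375 it was met by 12 of 37 members with kit #634413, against 17.6%, and by 4 of 32 with kit #634444 (H2AC6, H2AC19, H3C2 and H3C3), against 6.36%. The members' share was thus 38.98% and 29.8% in Jurkat and 32.4% and 12.5% in A375, with kit #634413 first. With limits of 10 and 100 counts it was met in Jurkat by 23 of 59 members, against 4.59% of all genes, and by 16 of 57, against 0.572%. All genes here are those of any level from 10 CPM up. The rule depends on a gene's level, and members were not compared with genes of like level. No H1 member met the rule in any group, and 12 members met it in both Jurkat groups: H2AC8, H2AC21, H2AC25, H2BC14, H2BC15, H2BC26, H3C1, H3C12, H3C13, H4C1, H4C9 and H4C15. The share of all genes that met it in both Jurkat groups is not given here, so this overlap is not set against other genes. H2AC25, for example, ranged in Jurkat wells from 0 to 370.5 TPM with a median of 7.25 with kit #634413 and from 0 to 312 with a median of 30.1 with kit #634444. In single cells a member under 3 counts was not detectable at this depth, which is not absence.

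The class shares were correlated across wells. In A375 the median of Spearman's rho over the 10 pairs of class shares was 0.75 over 17 wells and 0.66 over 16 wells. Jurkat wells were taken apart at a histone share of 1%. Over the 12 wells under 1% the median was 0.67 with kit #634413 and 0.64 with kit #634444, and over the 6 wells at or above 1% it was 0.94 and 0.89. H4 stood apart in a set of each kit. In the 6 high wells of kit #634413 its rho with the other classes lay between 0.49 and 0.54 and that of the other pairs between 0.94 and 1.0. In the 12 lower wells of kit #634444 it lay between -0.05 and 0.41 and that of the other pairs between 0.60 and 0.85. Without H4C5, an alternative chosen after seeing the data, the values of H4 in those 12 wells lay between 0.10 and 0.21. All these are descriptions over wells that share a library total, and the 6-well values rest on few points.

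The gene most like the members' summed share was sought among 8442 non-member genes, by the mean of Spearman's rho with the share over the 18 Jurkat wells of each kit. Over these genes the median rho was -0.01 and the 95th percentile 0.31, and 9 genes passed 0.6. The 10 genes of highest rho are named here. The first was ENSG00000282988 at 0.79, a readthrough gene that overlaps H3C4 and H2AC7, followed by the histone pseudogene H2BC27P at 0.76. USP1, a deubiquitinase of DNA repair, followed at 0.73. Next were H2BC12L, an H2B gene on chromosome 21, and ENSG00000274559, annotated as an artifact and with the same counts, both at 0.71. The rest were UBR7 (0.62), TOP3A (0.61), C1orf21 (0.60), the variant histone H2AX (0.60) and BLOC1S2, just under 0.6 at 0.597. Of the 31-base stretches of H3C4 and H2AC7, 96.6% and 84.6% also occur in ENSG00000282988, and 61.9% of those of H2BC12 occur in H2BC12L. The counts of these genes are thus not independent of the members' counts. The rho values include the split between the sets of Jurkat wells. Within the 12 lower wells the rho of USP1 was 0.31 and 0.55, and that of H2AX 0.06 and 0.27. In A375 wells USP1 was at 0.65 and 0.08. Within the 12 lower Jurkat wells the summed share of 20 replication genes had a rho of 0.11 and 0.05 with the histone share, and that of 18 mitosis genes -0.43 and 0.50, opposite in sign between the kits.

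Factors that make and process histone mRNA were at least 2-fold higher in Jurkat about as often as all genes. Of 13 listed, 12 passed the filter and 2 were at least 2-fold higher in Jurkat with each kit, against 22.1% and 18.4% of all genes. None was lower, against 22.5% and 22.6%. SLBP, which binds the stem-loop, was higher with both kits, at 63.04 and 54.5 in A375 against 219 and 135 in Jurkat (mean CPM, kit #634413 first). CASP8AP2, a factor of the histone locus body, was at 46.97 and 59.2 in A375 against 150.1 and 99.8 in Jurkat and passed 2-fold with kit #634413 alone. ZNF473, a part of the U7 snRNP machinery for 3′ end cleavage, was at 12.8 and 11.8 in A375 against 29.4 and 41.03 in Jurkat and passed with kit #634444 alone. NPAT, the activator of histone transcription, was within 2-fold with both kits, at log2 0.64 and 0.53. RNU7-1, the U7 RNA that pairs with the site after the stem-loop, was listed at 0 in all groups.

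Of 11 variant histone genes outside the naming rule that are reported here, 9 passed the filter with kit #634413. Of these, 7 were at least 2-fold higher in Jurkat and 1 (MACROH2A2) lower, against 22.1% and 22.5% of all genes. With kit #634444, 8 passed, with 7 higher and none lower, against 18.4% and 22.6%. H2AX was at 37.5 and 32.2 in A375 against 141 and 203 in Jurkat (mean CPM), and H1-10 at 43.7 and 41.1 in A375 against 179.7 and 171 in Jurkat. H3-3B, a replacement H3, was within 2-fold, at 202 and 215 in A375 against 231 and 228 in Jurkat. Of 11 histone chaperones and assembly factors, 7 and 8 were at least 2-fold higher in Jurkat and none lower, against the same shares of all genes. Among those higher was NASP, which binds H1, H3 and H4, at 215 and 150.4 in A375 against 529 and 339 in Jurkat. CHAF1A of the replication-coupled assembly factor CAF-1 was at 59.7 and 48.3 in A375 against 183 and 134 in Jurkat.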

How the data were processed

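Total RNA of 78 sorted single cells was sequenced in paired 75-base reads. The authors trimmed reads with cutadapt, quantified Ensembl v91 transcripts and ERCC spikes with Kallisto 0.43.1 in its stranded mode, and deposited estimated counts and TPM for 200471 targets per well. The submitters' processing notes also name STAR 2.5.3 and the build hg38. Transcripts were matched to GENCODE v44 by identifier without version, and 4356 targets stayed unmatched and in the totals. Counts were summed per gene and not rounded. Wells under 25% of the median total were left out. Shares, 2-fold counts (pseudocount 5 CPM, mean of at least 10 CPM) and Spearman's rho were computed with Python 3.11.15, pandas 2.3.3 and SciPy 1.17.1, and the scripts were tested on simulated data. Since 1 well is 1 cell and no cultures are named, no test was run. Named members were, per class, the 4 of highest mean TPM, then the 3 of largest log2 difference in each direction, members without counts, and the 10 most similar other genes. H4C5, H2AC16, H2AC18, H2AC25 and the pair examples were named after their values were seen. The members and lists were chosen with earlier results of these data known. Alternatives are described in the closing section. A gene of the variant list is not reported here. Motif, stem-loop and 31-base searches used GENCODE v44 transcripts and RefSeq promoters.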

Additional observations from a re-analysis of the deposited data

How the results depend on the processing

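No paired analysis was possible because the labels give no replicate numbers shared between groups. Of 192 alternative values of 58 results, 166 kept their direction and moved by less than 1 SD between wells or, for counts of genes, by at most 1.5 times, 24 moved further and 2 changed sign. The 166 include values that could not move. Settings that add or drop wells left Jurkat values as they were, since the wells concerned were all A375 wells. A limit of 100 bases after the stem-loop in place of 50 could not change the transcript forms, since no annotated end lay between these limits. The SD between Jurkat wells is wide, and with medians in place of means the difference between the lines was 0.245 and 0.306 percentage points (kit #634413 first). With the deposited TPM in place of counts, which weighs short genes more, the histone share was 0.276% and 0.302% in A375 and 1.83% and 2.45% in Jurkat. The kit difference in A375 changed sign to -0.00698 percentage points without wells under 50% protein-coding and to -0.00620 with 62 wells thinned to 440709 counts. With kit #634413, 2 members were at least 2-fold lower in Jurkat without those wells, with a protein-coding denominator or with no filter. Of all genes 25.1%, 29.9% and 11.9% were. With kit #634444, 2 members were lower with a pseudocount of 1 CPM or no filter, against 25.4% and 10.3% of all genes. Members that differed between kits in A375 numbered 1 with all 78 wells and 5 with a pseudocount of 1. They numbered 0 with a pseudocount of 20 and 0 at 4-fold. Of all genes 9.61%, 5.53%, 0.216% and 0.104% were then higher with kit #634444, and 1.72%, 2.57%, 0.122% and 0.0471% lower. In Jurkat 2 members differed with a pseudocount of 20 and 2 at 4-fold. Of all genes 0.433% and 0.151% were then higher and 0.363% and 0.121% lower. All-or-none members in A375 with kit #634413 were 1 of 37 with limits of 10 and 100 counts, against 1.24% of all genes. They were 6 of 37 with limits in CPM, against 13.6%, and 36 of 37 with 10% of wells on each side, against 84.7%. With kit #634444 they were 0 of 32 with limits of 10 and 100 counts, against 0.379%, and 20 of 32 with 10% of wells, against 37.1%. In Jurkat they were 49 of 59 and 37 of 57 with 10% of wells, against 75.2% and 52.1%. With limits of 10 and 100 counts they were 23 of 59 and 16 of 57, against 4.59% and 0.572%. By counts instead of TPM, H1 took 31.2% in A375 with kit #634444 and 18.4% and 25.6% in Jurkat. The class rho in A375 with kit #634413 was 0.637 with a protein-coding denominator. Apart from what each alternative does by construction, the cause was not tested. Leaving out H4C5, chosen after seeing the data, moved no share by more than the spread between wells. With fewer than 3 counts a member cannot be told from 0.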

Other observations

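Relatives of the members that the naming rule leaves out had values too. H2BC12L, a protein-coding H2B gene on chromosome 21, was at 3.83 ± 6.31 and 4.37 ± 6.45 CPM in A375 wells and 41.4 ± 69.5 and 42.6 ± 38.5 in Jurkat wells (mean ± SD over wells, kit #634413 first). The pseudogene H2BC27P was at 0.397 ± 1.64 and 0 ± 0 CPM in A375 wells and 18.2 ± 34.3 and 17.8 ± 29.2 in Jurkat wells. ENSG00000282988, which overlaps H3C4 and H2AC7 on chromosome 6, was at 12.2 ± 24.1 and 16.1 ± 29.9 CPM in A375 wells and 86.4 ± 133 and 255 ± 329 in Jurkat wells, and reads of these members cannot be told from its own where the exons are shared. Other pseudogenes of the locus, such as H2AC2P, H2AC3P and H2AC9P, had no count in any well.

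The wells with the lowest histone share of each group differed in their other genes. The Jurkat well with 41 member counts held the highest summed share of 18 mitosis genes of its group, 1.44%, and the lowest of 20 replication genes, 0.104%. The lowest A375 well of kit #634444, at 0.0131% histone counts, held 0.941% of mitosis genes, also the highest of its group. The lowest Jurkat well of kit #634444, at 0.119% histone counts, held 0.0269% of mitosis genes and 0.0606% of replication genes, each the lowest of its group. The lowest A375 well of kit #634413, at 0 histone counts, had 4.84% of its counts on protein-coding genes, and the next, with 9 histone counts, had 10.5%. These are values of single cells and were not tested.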
